A study of Mus musculus with 14 samples.

Results

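The transcripts of 10 secreted cytokines, chemokines and growth factors that muscle cells can make were followed in differentiating C2C12 cells. They were Il6, Lif, Csf1, Ccl2, Ccl7, Cxcl1, Cxcl5, Cxcl12, Il15 and Vegfa, chosen by gene symbol from the 24016 transcripts of the deposited RNA-seq table, which holds 1 transcript for each of them. C2C12 cells are mouse myoblasts that fuse into myotubes once serum is reduced. The study asked how the transcription factor Klf5 takes part in muscle differentiation. Cells received a control siRNA (siCtrl) or a pool of Klf5 siRNAs (siKlf5) in growth medium with fetal bovine serum and were then moved to differentiation medium with horse serum. RNA was taken on days 0, 1, 2 and 3, with 1 library per siRNA and day and 8 in all. No other genotype, cell type or agent entered these 8 libraries, and no label or method says whether the days came from separate transfections.

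Secreted signals of this kind act on neighbouring cells as well as on the cell that makes them. Il6 and Lif are ligands of receptors that share the gp130 subunit and signal through JAK kinases and STAT3, Csf1 sustains macrophages, and the CC and CXC chemokines guide monocytes, neutrophils and progenitor cells through G-protein-coupled receptors. Il15 supports T and NK cells, and Vegfa is the main growth factor of blood vessels. In muscle these factors are known from exercise and from repair after injury, in which macrophages, vessels and muscle progenitors respond together.

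All levels below are the deposited FPKM values, which are counted per kilobase of exon and scaled to 10000000 per library, so they exceed FPKM in the common sense. Dividing each value by what 1 read is worth gave the reads behind it. Summed over all listed transcripts, these came to between 7850497 and 20301506 reads per library, with siCtrl of day 1 the shallowest and siCtrl of day 2 the deepest. Reads outside these transcripts are not in these sums. Transcripts with 6 reads outnumbered those with 5 by 2.83 to 10.0 times, so intervals for counting error were taken on reads divided by 6. Klf5 itself was lower in siKlf5 on each day, with 224, 381, 614 and 933 FPKM in siCtrl and 35.1, 159.6, 192 and 211 in siKlf5 on days 0 to 3. In limma's fit over the 8 libraries its difference was -1.92 on the log2 scale (SE 0.19, adjusted p = 0.0122). Even this call on the targeted gene was lost with no filter, no trend, no day term or any day left out, where 0 transcripts passed. The 8 myogenic markers were present in every library, and their summed level went from 3295 FPKM on day 0 to 16394 on day 3 in siCtrl and from 2765 to 15650 in siKlf5. Of these 8, the 6 genes Des, Myog, Myh3, Ckm, Acta1 and Tnnt3 rose by day 3 (limma, adjusted p under 0.05), which is how the labelled state of these cultures was checked. Myod1 and Myf5 had day 3 estimates of 0.28 and -0.17 (limma adjusted p = 0.148 and 0.428). Between siRNAs 0 of the 8 passed (0.0699% of all transcripts), with a median of 0.01. The sum does not show Myog, which was lower in siKlf5 on each day. On day 3 it was at 2293 FPKM in siCtrl and 1386 in siKlf5, and its siRNA estimate was -0.46 (SE 0.10, limma adjusted p = 0.181).

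Promoter sequence is shown for the 5 members with an NF-kappaB match so that the windows can be read beside the values of these genes. Each is the 250 bases before the start of the deposited transcript, read from the mm9 genome and written 5′ to 3′ on the strand of the gene. Capitals mark matches, on either strand, to any of 4 motifs: CCNCNCCC, a box bound by KLF and Sp factors, CAGCTG, the E-box bound by MyoD, GGGNN followed directly by TTTCC, bound by NF-kappaB, and TGANTCA, bound by AP-1. Matches of 1 motif may overlap each other.
Il6, chr5:30339451-30339700, plus strand: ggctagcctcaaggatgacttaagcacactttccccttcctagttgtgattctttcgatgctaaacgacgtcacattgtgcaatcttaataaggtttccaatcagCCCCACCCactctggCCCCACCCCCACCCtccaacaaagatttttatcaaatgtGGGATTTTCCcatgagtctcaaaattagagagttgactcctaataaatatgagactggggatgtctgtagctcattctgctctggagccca
Csf1, chr3:107563388-107563637, minus strand: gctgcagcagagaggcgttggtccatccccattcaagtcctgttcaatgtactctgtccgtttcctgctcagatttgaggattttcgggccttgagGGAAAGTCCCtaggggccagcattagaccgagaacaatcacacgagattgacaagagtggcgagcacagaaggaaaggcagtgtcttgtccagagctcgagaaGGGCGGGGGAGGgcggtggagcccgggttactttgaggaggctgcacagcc
Ccl2, chr11:81848829-81849078, plus strand: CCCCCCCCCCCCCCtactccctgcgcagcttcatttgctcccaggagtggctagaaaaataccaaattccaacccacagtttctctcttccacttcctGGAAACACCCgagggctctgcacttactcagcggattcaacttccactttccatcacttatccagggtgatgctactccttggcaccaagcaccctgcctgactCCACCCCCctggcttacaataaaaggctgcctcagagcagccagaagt
Cxcl1, chr5:91320021-91320270, plus strand: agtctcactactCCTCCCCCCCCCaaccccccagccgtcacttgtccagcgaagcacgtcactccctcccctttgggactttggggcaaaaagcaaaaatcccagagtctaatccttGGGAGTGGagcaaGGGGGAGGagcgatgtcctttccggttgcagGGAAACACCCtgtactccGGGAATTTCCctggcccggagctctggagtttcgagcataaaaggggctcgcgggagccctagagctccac
Cxcl5, chr5:91188074-91188323, plus strand: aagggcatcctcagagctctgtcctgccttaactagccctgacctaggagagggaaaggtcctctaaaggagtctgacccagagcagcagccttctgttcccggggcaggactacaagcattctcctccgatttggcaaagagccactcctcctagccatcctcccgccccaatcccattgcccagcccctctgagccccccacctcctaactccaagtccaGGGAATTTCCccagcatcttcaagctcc

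The NF-kappaB letters were found in 5 of the 9 member windows searched, against 1.39% of the 23950 windows of all transcripts and 1.46% of the 14309 windows of expressed ones. They began 91 bases before the start of Il6 (at -91), at -154 in Csf1, at -152 in Ccl2, at -89 and -71 in Cxcl1 and at -28 in Cxcl5. The KLF and Sp box was found in 6 of 9 member windows, against 52.0% of all and 62.5% of expressed windows, so its share was near the background. Lif, Ccl7 and Cxcl5 had no such match. In Ccl2, 7 of its 8 matches lie in a single run of C and overlap each other. The E-box was in 0 of these 9 windows, against 12.4% of all windows, and the AP-1 letters were found only in Ccl7, at -69, against 6.17%. These are matches of letters and do not show that a factor binds there.

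**Figure D1:**
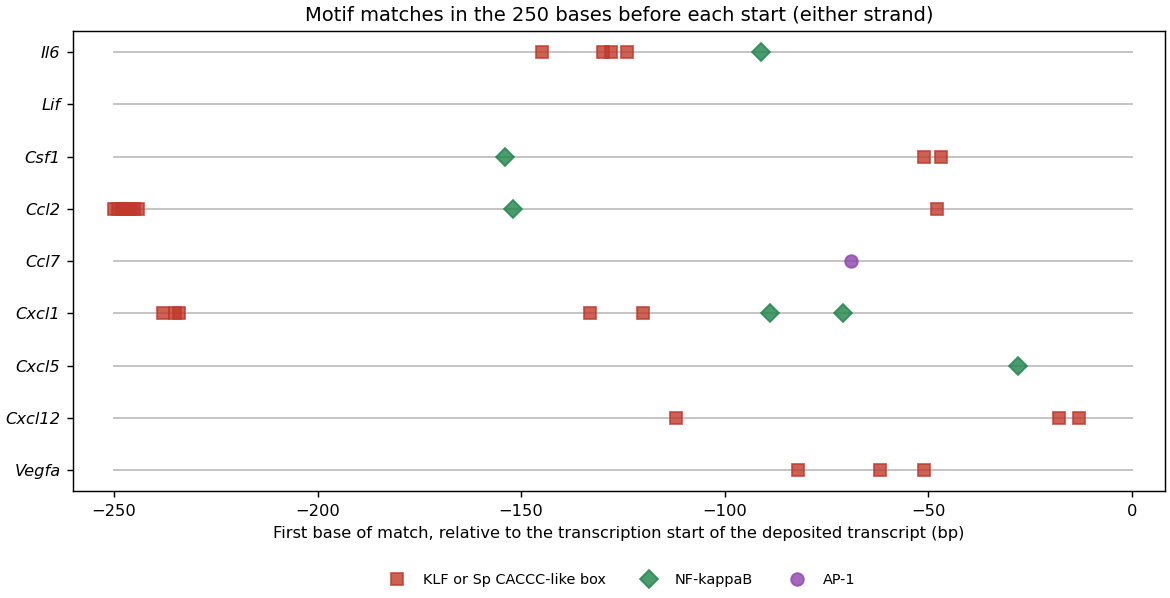
Position of each motif match (first base, in bp before the transcript start, x axis) in the 250 bases upstream of 9 members, with a symbol for each motif that matched. NF-kappaB symbols appear in Il6, Csf1, Ccl2, Cxcl1 and Cxcl5, and Ccl7 alone has an AP-1 symbol.

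The members spanned a wide range of levels. By mean over the 8 libraries Vegfa was highest at 439 FPKM, followed by Csf1 at 245, Ccl2 at 105, Cxcl12 at 69.7, Ccl7 at 59.4, Cxcl5 at 43.9, Lif at 22.7, Cxcl1 at 19.2, Il15 at 11.3 and Il6 at 3.41. The mean of Vegfa lay at the 95.02nd percentile of all transcripts and that of Il6 at the 46.6th. Ranges over the libraries overlapped between neighbours in this order, also at the top, where Vegfa ran from 303 to 685 FPKM and Csf1 from 149 to 381. Lif, at 9.71 to 31.5, and Cxcl1, at 0.795 to 36.2, had ranges that overlapped almost throughout.

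**Figure D2:**
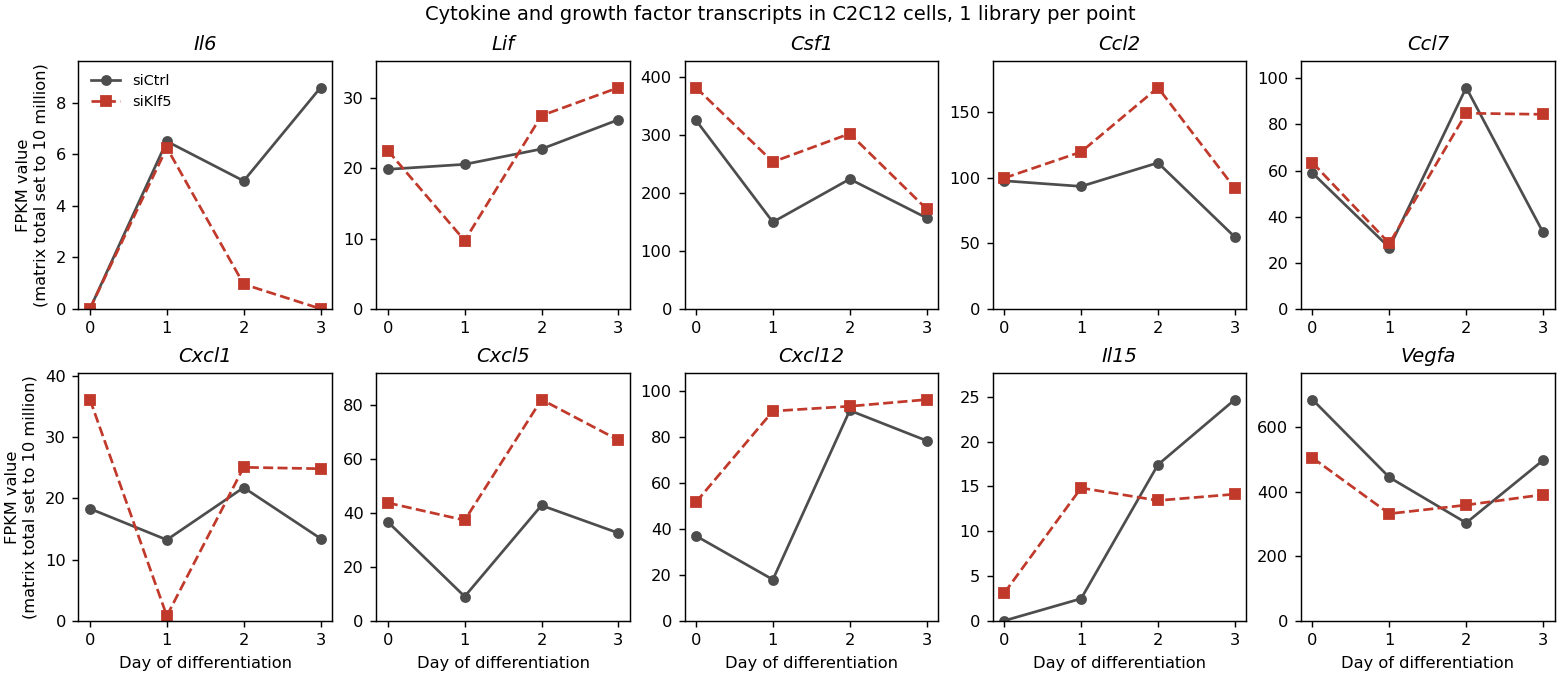
FPKM value (y axis, linear, a scale for each panel) by day of differentiation (x axis) for the 10 members, with siCtrl as grey circles and siKlf5 as red squares, 1 library per point. Csf1, Ccl2, Cxcl5 and Cxcl12 are higher in siKlf5 on all 4 days, Il15 reaches 24.7 in siCtrl on day 3, and Il6 stays below 9 in every library.

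Differences between siKlf5 and siCtrl were first taken on each day, as log2 of the ratio of FPKM + 1, with a member past 1.5-fold counted but not tested because no day has a replicate. Past 1.5-fold, 2 members were higher and 0 lower on day 0, against 8.18% and 10% of the 14312 transcripts whose mean reached 1 FPKM, called expressed here. On day 1, 4 were higher and 2 lower, against 15.6% and 10.3%. Day 2 had 2 higher and 1 lower (background 6.78% and 11.6%), and day 3 had 4 higher and 2 lower (background 9.9% and 11.6%). Counting intervals held 0 for every member counted lower, and for Cxcl1 and Il15, the 2 higher on day 0. Those above 0 belonged to Csf1, Cxcl5 and Cxcl12 on day 1, Cxcl5 on day 2, and Ccl7 and Cxcl5 on day 3. The other members counted higher had intervals that held 0. The median member ratio was 0.20, 0.22, 0.22 and 0.26 on the log2 scale on days 0 to 3, beside 0.00, 0.03, -0.03 and 0.00 over all transcripts. Csf1, Ccl2, Cxcl5 and Cxcl12 were higher in siKlf5 on all 4 days, by any amount, which 9.05% of all transcripts were.

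**Figure D3:**
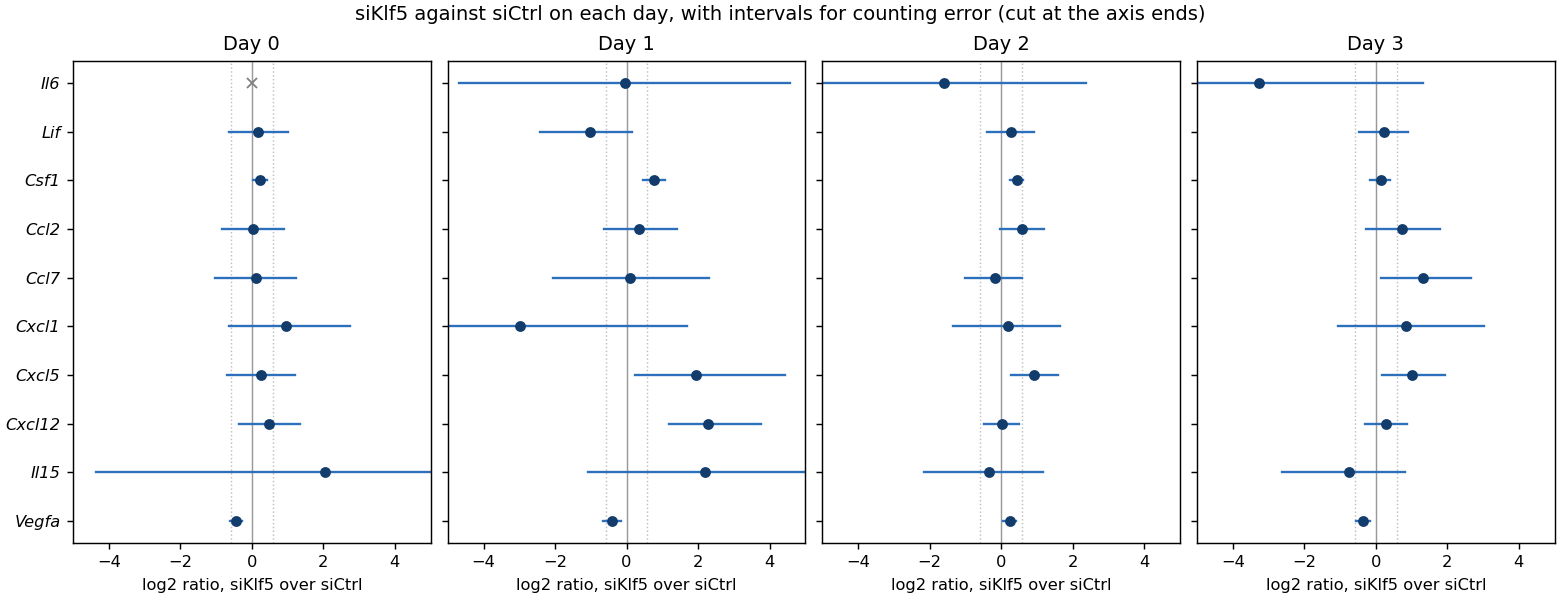
Ratio of siKlf5 to siCtrl (x axis, log2 of FPKM + 1) for each member on days 0 to 3, with 95% exact intervals for counting error only, drawn to the axis ends, and dotted lines at 1.5-fold. The intervals are for the ratio of reads scaled by depth, without the added 1. A grey cross marks Il6 on day 0, with 0 reads in both libraries, and the intervals of Cxcl5 lie above 0 on days 1, 2 and 3.

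The siRNA difference shared by the 4 days was tested with limma on log2(FPKM + 1), with day as a factor. Of the 10 members 0 passed an adjusted p of 0.05, and 4 had an unadjusted p under 0.05. Over all 14312 transcripts 0.0699% passed, 1 higher (0.00699%) and 9 lower (0.0629%), and 9.9% had an unadjusted p under 0.05. The median member estimate was 0.36, beside 0.01 over all transcripts. The days stand in for replicates here. The spread behind these p-values is how far the siRNA difference varied between days, together with noise between libraries. It is not a spread between repeats of a condition.

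Changes with time were tested in the same fit, in which the siCtrl and siKlf5 libraries of a day stand in for its replicates. Against day 0, the members past the threshold were Csf1 and Vegfa on day 1, both lower, Il15 (higher) and Vegfa (lower) on day 2, and Il15 (higher) and Csf1 (lower) on day 3. The shares of all transcripts called higher and lower were 6.76% and 10.3% for day 1, 11.7% and 12.1% for day 2, and 13% and 18% for day 3. Of all transcripts called on day 1, 39.6% were higher, but 54.1% with median-ratio centring and 57.6% with upper-quartile scaling. The latter moved the median of all transcripts by 0.12. On day 3 the share was 42.0%, and 53.8% with median-ratio centring. Less RNA per cell and fewer cells that express a gene cannot be told apart in these cultures.

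**Figure D4:**
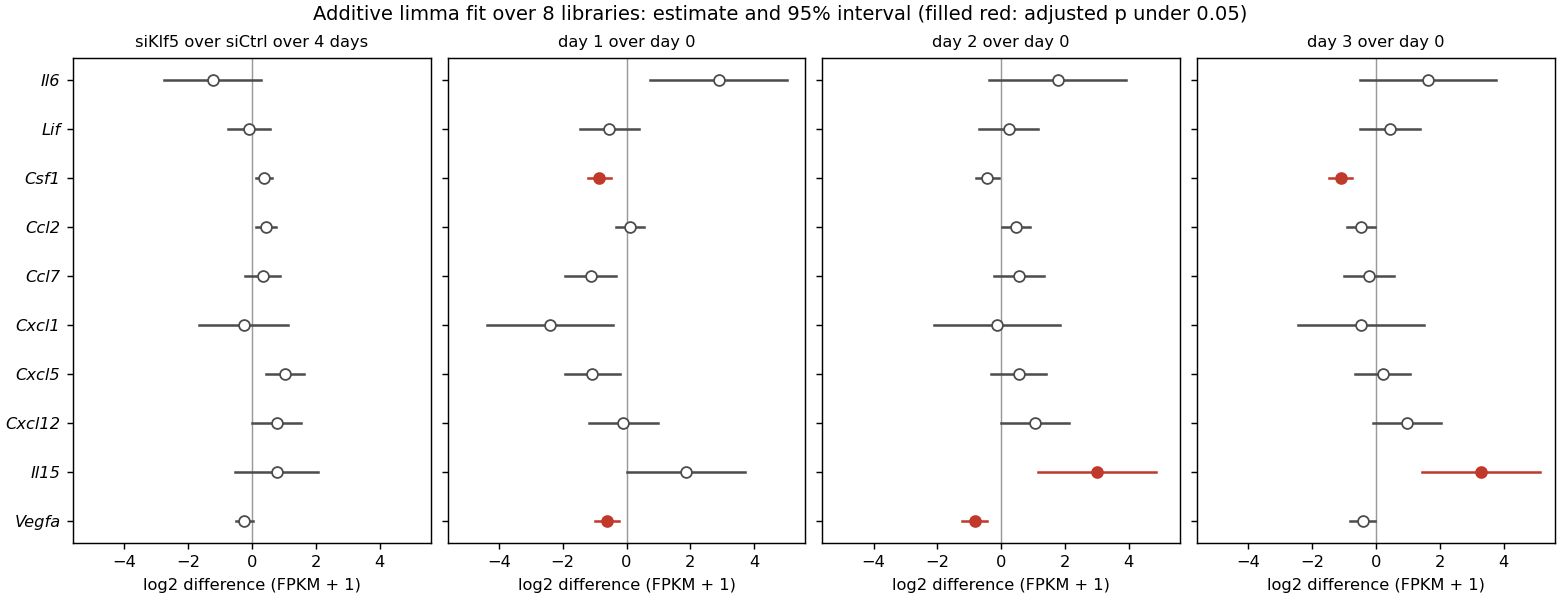
limma estimates (x axis, log2 of FPKM + 1) with 95% intervals for the 10 members, for siKlf5 over siCtrl across 4 days and for days 1, 2 and 3 over day 0. Filled red points have an adjusted p under 0.05, 0 of them in the siRNA panel and 2 in each day panel.

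Il6 (NM_031168, chr5:30339701-30346508, plus strand), the founding gp130 cytokine and a signal that contracting muscle releases, was barely expressed. Its level in siCtrl was 0, 6.50, 4.96 and 8.58 FPKM on days 0 to 3, from 0, 9, 18 and 19 reads. In siKlf5 it was 0, 6.25, 0.953 and 0 FPKM, from 0, 9, 2 and 0 reads. Both siRNAs were thus at 0 on day 0 and alike on day 1, and they separated on days 2 and 3. On day 3, 3 reads in the siKlf5 library would be worth 1.55 FPKM. With reads taken in groups of 6, the counting interval of that day's ratio reached 1.33 on the log2 scale and held 0, so the difference was not detectable at this depth. limma's estimate over the days was -1.23 (SE 0.66, adjusted p = 0.578), and -0.55 without day 3. All of this rests on 57 reads.

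Lif (NM_001039537, chr11:4166799-4172517, plus strand), a gp130 cytokine that keeps mouse embryonic stem cells undifferentiated and stimulates myoblast growth, was steady in siCtrl at 19.9, 20.6, 22.8 and 26.9 FPKM. In siKlf5 it was 22.5, 9.71, 27.5 and 31.5 FPKM, so the library of day 1, with 53 reads, was the only low one. The log2 ratio on day 1 was -1.01, with a counting interval of -2.42 to 0.16. Over the days the estimate was -0.09 (SE 0.29, limma adjusted p = 0.953), and it was 0.22 without day 1.

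Csf1 (NM_007778, chr3:107543966-107563387, minus strand), the growth factor that macrophages need to survive, was the second most abundant member. It read 325, 149, 224 and 157 FPKM in siCtrl and 381, 253, 302 and 172 in siKlf5 on days 0 to 3. Day 0 was highest and the later days lower under both siRNAs, and siKlf5 was above siCtrl on each day. The log2 ratios were 0.23, 0.76, 0.43 and 0.13, and the counting intervals of days 0, 1 and 2 lay above 0. With 798 to 3128 reads per library these intervals were narrow, the one of day 1 running from 0.46 to 1.09. Across the 4 days the difference was 0.39 (SE 0.11, limma adjusted p = 0.303). Csf1 fell with time, by 0.85 on the log2 scale on day 1 (SE 0.16, limma adjusted p = 0.00797) and by 1.10 on day 3 (SE 0.16, limma adjusted p = 0.00120). The call on day 1 was lost without the libraries of day 2 (adjusted p = 0.0602), with no trend (adjusted p = 0.0769) and with no filter (adjusted p = 0.126). The call on day 3 was also lost with no filter.

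Ccl2 (NM_011333, chr11:81849079-81850954, plus strand) encodes the chemokine that draws monocytes through the receptor Ccr2. Its levels were 97.7, 93.5, 111 and 54.8 FPKM in siCtrl and 99.8, 119.8, 169 and 92.0 in siKlf5. Both courses peaked on day 2 and were lowest on day 3, and the siKlf5 library was the higher one on each day. The log2 ratio was 0.03, 0.35, 0.59 and 0.74 on days 0 to 3, and each counting interval held 0, the last from -0.27 to 1.79. The difference over the days was 0.43 (SE 0.14, limma adjusted p = 0.355).

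Ccl7 (NM_013654, chr11:81859214-81861025, plus strand), a monocyte chemokine that shares receptors with Ccl2, starts 8260 bp beyond the end of Ccl2 with no other gene of the table between them. It stood at 58.9, 26.5, 96.0 and 33.2 FPKM in siCtrl and at 63.4, 28.3, 84.9 and 84.4 in siKlf5. The siRNAs were close on days 0, 1 and 2 and apart on day 3, when siKlf5 was higher by 1.32 on the log2 scale (counting interval 0.14 to 2.66). Over the days the estimate was 0.34 (SE 0.24, limma adjusted p = 0.689), and 0.01 without day 3 and 0.51 without day 2. Both were low on day 1, with 27 and 30 reads, and limma's estimate for day 1 over day 0 was -1.13 (SE 0.34, adjusted p = 0.0567). Unlike its neighbour Ccl2, whose day 1 estimate was 0.10 (adjusted p = 0.785), Ccl7 was thus low on that day under both siRNAs, a difference between the genes that was not tested.

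Cxcl1 (NM_008176, chr5:91320271-91322141, plus strand), a chemokine that draws neutrophils through Cxcr2, had few reads. In siCtrl it was at 18.3, 13.2, 21.8 and 13.5 FPKM, from 34, 16, 69 and 26 reads, and in siKlf5 at 36.2, 0.795, 25.1 and 24.9, from 61, 1, 46 and 42 reads. siKlf5 was the higher library on days 0, 2 and 3, and on day 1 it held 1 read. The log2 ratios were 0.94, -2.99, 0.20 and 0.84, and all 4 counting intervals held 0. Over the days the estimate was -0.25 (SE 0.61, limma adjusted p = 0.935), and 0.66 without day 1, so its direction rests on that day. Lif and Cxcl1 shared the low siKlf5 library of day 1, and their log2 levels had a Pearson r of 0.88 over the 8 libraries.

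Cxcl5 (NM_009141, chr5:91188324-91190651, plus strand) is also a neutrophil chemokine and lies 129620 bp from Cxcl1. It was at 36.7, 8.98, 42.8 and 32.5 FPKM in siCtrl and at 43.7, 37.3, 82.0 and 67.0 in siKlf5. The siKlf5 library was higher on every day, and from day 1 on its values and those of siCtrl left a gap that counting error did not cover. The log2 ratios were 0.25, 1.94, 0.92 and 1.02, with counting intervals of 0.25 to 4.43, 0.28 to 1.59 and 0.17 to 1.94 on days 1, 2 and 3. The siCtrl library of day 1 held 19 reads and siKlf5 held 82. Among the members this was the smallest p for the siRNA difference, with an estimate of 1.03 (SE 0.27), a fold of 2.05 (95% interval 1.34 to 3.12), and limma's adjusted p was 0.265. Without day 1 the estimate was 0.73.

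Cxcl12 (NM_021704, chr6:117118553-117125087, plus strand), the ligand of Cxcr4 and Ackr3 that guides muscle progenitors, differed most on day 1. The siCtrl values were 36.9, 17.9, 91.5 and 78.4 FPKM and the siKlf5 values 51.7, 91.3, 93.4 and 96.3. On day 1 siCtrl was at its lowest, from 43 reads, while siKlf5, with 228 reads, was already near the level it kept, and by day 2 the siRNAs met. The log2 ratios were 0.47, 2.29, 0.03 and 0.29, and only the counting interval of day 1, 1.19 to 3.75, lay above 0. The estimate over the days was 0.77 (SE 0.33, limma adjusted p = 0.498) and 0.27 without day 1. Day 3 over day 0 was 0.98 (SE 0.47, limma adjusted p = 0.153), and it passed without the libraries of day 1 (adjusted p = 0.0134). Cxcl5 and Cxcl12 had a Pearson r of 0.84 over the 8 libraries, which share depth and days.

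Il15 (NM_001254747, chr8:84855523-84926485, minus strand), a cytokine of T and NK cells that is abundant in muscle, rose during differentiation. It was listed at 0, 2.47, 17.4 and 24.7 FPKM in siCtrl, from 0, 4, 74 and 64 reads, and at 3.09, 14.8, 13.4 and 14.1 in siKlf5, from 7, 25, 33 and 32 reads. Under siCtrl each later day was higher than the one before, whereas siKlf5 was at its later level by day 1. For day 3 over day 0 in siCtrl, the counting interval of the log2 ratio began at 1.25, with no upper end because day 0 was at 0. In siKlf5 day 3 was 4.56-fold above day 0, with a counting interval of -0.75 to 7.14 on the log2 scale. limma gave 3.01 on day 2 (SE 0.81, adjusted p = 0.0285) and 3.28 on day 3 (SE 0.81, adjusted p = 0.0157), sizes that depend on the pseudocount because siCtrl began at 0. The call on day 2 was lost without day 3 (adjusted p = 0.0652) and that on day 3 without day 2 (adjusted p = 0.0600). Both calls were lost with no filter, and that on day 2 also with no trend (adjusted p = 0.0998). Between siRNAs the log2 ratios were 2.03, 2.19, -0.35 and -0.76, all counting intervals held 0, and the estimate over the days was 0.78 (SE 0.57, limma adjusted p = 0.693). It was 0.36 without day 0, 0.31 without day 1 and 1.29 without day 3.

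Vegfa (NM_001025257, chr17:46153943-46169326, minus strand), which muscle fibres secrete to attract vessels, was the most abundant member. Its levels were 685, 444, 303 and 497 FPKM in siCtrl and 504, 331, 358 and 390 in siKlf5. siKlf5 was lower on days 0, 1 and 3 and higher on day 2, when siCtrl was at its minimum. With 1466 to 4469 reads per library, the log2 ratios of -0.44, -0.42, 0.24 and -0.35 all had counting intervals that excluded 0, the interval of day 2 running from 0.04 to 0.42. The estimate over the days was -0.24 (SE 0.12, limma adjusted p = 0.540), and -0.40 without day 2. Vegfa fell with time, by 0.61 on the log2 scale on day 1 (SE 0.17, limma adjusted p = 0.0382) and by 0.83 on day 2 (SE 0.17, limma adjusted p = 0.00863), and on day 3 the estimate was -0.42 (adjusted p = 0.0952). The day 1 call was lost with median-ratio centring (adjusted p = 0.106), with upper-quartile scaling (adjusted p = 0.127) and without day 3 (adjusted p = 0.122), and the day 2 call without day 3 (adjusted p = 0.0529). Both calls were also lost with no filter and with no trend.

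Markers of other cells that make or answer these factors summed to far less than the myogenic markers. Of 8 leukocyte and macrophage markers, 1 to 3 were at 0 in each library, Cd3e in all of them. Their summed level was 27.6 to 85.7 FPKM in siCtrl and 44.7 to 54.8 in siKlf5, most of it Lyz2 at 16.3 to 65.0. Cd68 was at 1.91 to 23.5 and Itgam at 0.241 to 5.25. By mean, Lyz2 (30.1 FPKM) and Cd68 (10.2) were at levels like those of the members Lif (22.7) and Il15 (11.3). The siCtrl library of day 3 had the highest sum, and Ptprc, the general leukocyte marker, did not exceed 0.707 in any library. Of 4 endothelial markers 1 to 4 were at 0, with sums of 0.326 to 3.31 in siCtrl and 0 to 5.36 in siKlf5. The part of such cells in the chemokine values was not tested.

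The receptors of the members fell into those that were expressed and those that were not. Of 28 receptors and signal transducers 21 had a mean of at least 1 FPKM. The gp130 subunit Il6st was at 208 to 308 FPKM, Lifr at 29.1 to 63.4 and Il6ra at 21.5 to 53.4, so the receptor chains for Il6 and Lif were present in every library. Cxcr4 and Ackr3, both bound by Cxcl12, were at 42.2 to 162 and 179 to 316 FPKM. In contrast Ccr2 and Ccr3 were at 0 throughout, Cxcr2 did not exceed 1.54, Csf1r 1.39 and Kdr, the main signalling receptor of Vegfa, 0.826. The other Vegfa receptors were expressed, with Flt1 at 3.83 to 24.3 FPKM and the co-receptors Nrp1 and Nrp2 at 62.7 to 130.1 and 132 to 192.

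With time 6 of the 21 expressed receptors and transducers rose by day 3 and 0 fell, beside the 13% and 18% of all transcripts. In limma 11 of the 21 had an unadjusted p under 0.05, either way, beside 6004 of all 14312 transcripts. The median estimate of the 21 was 0.23 against -0.08 over all. Cxcr4 rose by 1.81 on the log2 scale (SE 0.18, limma adjusted p = 0.000218), from 43.5 to 162 FPKM in siCtrl and from 42.6 to 145 in siKlf5. Stat3, the main transducer of gp130, rose by 0.96 (limma adjusted p = 0.000331). Il2rb, the chain that Il15 shares with Il2, was at 0 on day 0 under both siRNAs and at 11.6 and 28.1 FPKM on day 3 (limma adjusted p = 0.000857), whereas Il15ra stayed between 0 and 5.02. The most abundant genes of the list, Ptpn11 and Grb2, had day 3 estimates of -0.21 and 0.23 (adjusted p = 0.157 and 0.172 in limma). For the siRNA difference 0 of the 21 passed in limma, with a median of 0.06. Of the 21, 3 had an unadjusted p under 0.05, against 9.9% of all transcripts. Past 1.5-fold, 3, 0, 2 and 2 were higher in siKlf5 on days 0 to 3 (8.18%, 15.6%, 6.78% and 9.9% of all transcripts). The lower ones numbered 1, 2, 2 and 2 (10%, 10.3%, 11.6% and 11.6%). The smallest p was that of Ackr3, a scavenger of Cxcl12, at -0.40 (SE 0.12, limma adjusted p = 0.309).

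Of 47 other interleukins, chemokines and growth factors, 27 were expressed, 0 rose and 1 fell in siKlf5 (0.00699% and 0.0629% over all transcripts), with a median of -0.06. An unadjusted p under 0.05 was found for 9 of the 27, against 9.9% of all transcripts. Past 1.5-fold, 4, 6, 6 and 8 were higher in siKlf5 on days 0 to 3 (8.18%, 15.6%, 6.78% and 9.9% of all transcripts). On the lower side were 9, 7, 5 and 4 (10%, 10.3%, 11.6% and 11.6%). The one that fell was Il33, an alarmin held in the nucleus until cells are damaged. It was at 91.5, 124, 132 and 135 FPKM in siCtrl and at 22.4, 39.5, 55.4 and 34.0 in siKlf5. Across the days it was lower by 1.70 on the log2 scale (SE 0.16, limma adjusted p = 0.0122). With no filter, no trend, no day term or any day left out, 0 transcripts passed between siRNAs, so this call was lost there. By day 3, 4 genes of the list rose and 2 fell, beside 13% and 18% of all transcripts. Ccl11, a chemokine of eosinophils, went from 3.33 to 30.1 FPKM in siCtrl and from 0 to 60.6 in siKlf5 (limma adjusted p = 0.00236). Ctf1, a gp130 cytokine, rose by 2.48 (limma adjusted p = 0.00270). Clcf1, another gp130 ligand, fell by 0.88 on the log2 scale (limma adjusted p = 0.00394). The most abundant genes of the list were Mif, which inhibits macrophage migration and also fell, by 0.80 (limma adjusted p = 0.00495), and Vegfb, with a day 3 estimate of -0.34 (limma adjusted p = 0.0647).

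Genes downstream of these signals were read as lists. Among 20 expressed NF-kappaB factors, inhibitors and targets, 0 passed between siRNAs in limma (median -0.03). An unadjusted p under 0.05 was found for 2, near the 9.9% of all transcripts. By day 3, 2 rose and 2 fell, beside 13% and 18% of all transcripts. Past 1.5-fold, 1, 5, 0 and 3 were higher in siKlf5 on days 0 to 3 (8.18%, 15.6%, 6.78% and 9.9% of all transcripts). Counts of lower genes were 2, 4, 5 and 0 (10%, 10.3%, 11.6% and 11.6%). Relb, a subunit of NF-kappaB, rose by 1.98 and Bcl3, a nuclear IkappaB protein, by 2.39 (limma adjusted p = 0.000407 and 0.0100). Vcam1, an adhesion molecule, fell by 0.50 on the log2 scale and Tnfaip2, induced by TNF, by 0.38 (limma adjusted p = 0.0479 and 0.0292). Nfkb2, one of the 2 most abundant of the list, had an estimate of 0.39 (limma adjusted p = 0.0980). Vcam1 also had the smallest p of the list between siRNAs, at 0.38 (limma adjusted p = 0.342).

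Among 17 feedback and target genes of gp130 and STAT3, which share Bcl3 with the list above, 0 passed between siRNAs in limma (median -0.01). An unadjusted p under 0.05 was found for 3, against 9.9% of all transcripts. By day 3, 5 rose and 3 fell, the latter near the background of 18%, with 13% for higher. Days 0 to 3 gave 0, 7, 2 and 1 past 1.5-fold higher in siKlf5, beside 8.18%, 15.6%, 6.78% and 9.9% of all transcripts. They gave 1, 1, 4 and 3 lower, beside 10%, 10.3%, 11.6% and 11.6%. Bcl6, a transcriptional repressor, rose by 1.82 and Junb, an AP-1 subunit, by 0.73 (limma adjusted p = 0.000760 and 0.00215). Socs1, a feedback inhibitor of JAK kinases, fell by 2.14 on the log2 scale (limma adjusted p = 0.000981), from 124 to 34.5 FPKM in siCtrl and from 82.8 to 14.2 in siKlf5. The list thus moved both ways with time. Timp1, an inhibitor of matrix proteases and the most abundant of the list, had a day 3 estimate of 0.19 (limma adjusted p = 0.372). The smallest p between siRNAs belonged to Myc, at -0.38 (limma adjusted p = 0.320).

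Hypoxia-inducible factors and their targets, the list to which Vegfa relates, had 18 expressed genes, with a median of -0.26 between siRNAs. Of these 0 passed in limma but 8 had an unadjusted p under 0.05, against 9.9% of all transcripts. Past 1.5-fold, 3, 10, 2 and 6 were lower in siKlf5 on days 0 to 3, beside 10%, 10.3%, 11.6% and 11.6% of all transcripts. Of the 18, 0, 1, 1 and 0 were higher, beside 8.18%, 15.6%, 6.78% and 9.9%. P4ha2, a collagen prolyl hydroxylase, had the smallest p of the list, at -0.63 (SE 0.11, limma adjusted p = 0.117). By day 3, 1 gene rose and 3 fell, beside 13% and 18% of all transcripts. Slc2a1, the basal glucose transporter, fell by 1.24 and Hif1a, the oxygen-regulated subunit, by 0.59 on the log2 scale (limma adjusted p = 0.00427 and 0.00440), while Kdm3a, a histone demethylase, rose by 0.75 (limma adjusted p = 0.00819). The glycolytic enzymes Ldha and Pgk1 were the most abundant, at 1468 to 3229 and 1260 to 2862 FPKM, with day 3 estimates of -0.42 and -0.51 (limma adjusted p = 0.121 and 0.0675).

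**Figure D5:**
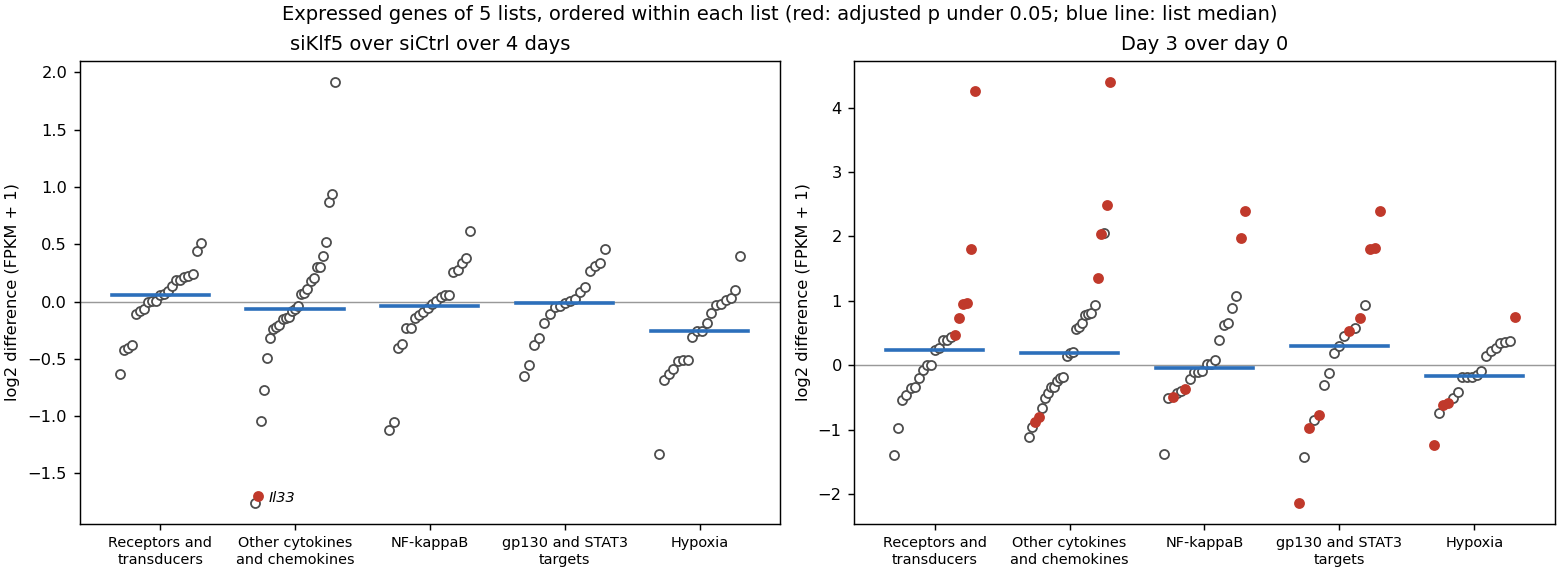
limma estimates (y axis, log2 of FPKM + 1) for the expressed genes of 5 lists, ordered within each list, for siKlf5 over siCtrl across 4 days (left) and day 3 over day 0 (right), with blue lines at list medians and red points for an adjusted p under 0.05. Il33 is the only red point on the left, and each list has red points above and below 0 on the right except the receptors, which have them above 0 only.

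The genes whose pattern over the 8 libraries was most like that of a member are given as a description, with Pearson's r of log2 levels, for transcripts whose mean reached 10 FPKM. For Csf1 they were Haus5 (r = 0.99) and Gps2 (0.98), for Cxcl12 Hagh (0.99) and Crtc1 (0.97), for Il15 Tbc1d16 (0.99) and Arl4a (0.99), and for Cxcl5 Pi4kb (0.98) and Galnt10 (0.95). Lif was closest to Zscan25 (0.97) and Ufsp1 (0.95), Cxcl1 to Nf2 (0.96) and Zmat5 (0.96), Ccl7 to Snhg9 (0.96) and Gm17066 (0.94), Ccl2 to Apoa1bp (0.95) and Wwc2 (0.92), and Vegfa to Mrps7 (0.94) and Mylk2 (0.93). No member was among the 2 closest transcripts of another.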

How the data were processed

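RNA from 8 of the 14 samples was analysed, and the 6 ChIP-seq samples were not used here. The authors selected poly(A) RNA, aligned paired reads to mm9 with STAR, counted them with HOMER on RefSeq exons over both strands, keeping 1 transcript per gene and up to 3 reads per position, and deposited FPKM values with a matrix total of 10000000. Overlapping antisense genes can therefore share reads. The versions used for these RNA-seq steps are not given in the sources used here. The table also holds 8 log2 columns per sample, which were not used.

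Reads were recovered from the steps of low FPKM values. In each library 3478 to 4914 values were checked, and all of them came to within 0.1 of whole reads. Intervals are 95% exact (Clopper-Pearson) and, like the floor of 3 reads, are for counting error alone. They are for the ratio of reads scaled by depth, without the added 1. For members with few reads that ratio lies further from 0 than the printed log2 ratio, as for Cxcl1 on day 1 (-4.06 against -2.99). The 14312 of 24016 transcripts whose mean FPKM reached 1 were fitted on log2(FPKM + 1), which understates the change of low genes, with limma 3.58.1 (R 4.3.3, trend) for day and siRNA, with 3 residual degrees of freedom and Benjamini-Hochberg adjustment over all of them. The siRNA by day interaction was not tested. Python 3.11.15, pandas 2.3.3, scipy 1.17.1 and matplotlib 3.10.9 were also used.

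Members and lists were chosen with earlier results of these data known. From each list the 2 genes with the highest mean were named, and up to 3 with the smallest p for siRNA and for day 3 where the adjusted p was under 0.05, or otherwise the 1 with the smallest p. For members with a mean of at least 5 the 2 most similar transcripts were named. Other receptors and markers given by name, and the promoters printed, were chosen after their values were seen. The promoter window of 1 member is not reported here. Ca9 was matched as Car9 and Adgre1 as Emr1. Alternatives were pseudocounts of 0.1 and 4, a mean of at least 5, no filter, a 2-fold cutoff, 2 other scalings, no trend, no day term and each day left out.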

Additional observations from a re-analysis of the deposited data

Results flagged for a closer look

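The siRNA difference of Cxcl1 turned direction between days, with log2 ratios of siKlf5 to siCtrl of 0.94 on day 0, -2.99 on day 1 and 0.84 on day 3. The difference between the days was not tested, the siKlf5 library of day 1 held 1 read of Cxcl1, and the counting interval held 0 on each of these days.

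Il15 turned direction after day 1, with log2 ratios of 2.03 on day 0 and 2.19 on day 1 against -0.76 on day 3. These rest on 0 and 7 reads, 4 and 25 reads, and 64 and 32 reads for siCtrl and siKlf5, and the difference between the days was not tested.

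Cxcl12 moved in opposite directions from day 0 to day 1, by -1.004 on the log2 scale in siCtrl and by 0.81 in siKlf5. Each siRNA has 1 library per day, so the difference between the siRNAs was not tested.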

How the results depend on the processing

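No condition has a replicate, and leaving out a day removes both of its libraries. The day term pairs the siRNAs within a day. Of 622 values of single genes under the alternatives, 593 kept direction and side of the threshold, 4 turned direction, 19 lost a call and 6 gained one. Many of these could not turn direction, because the filters and the trend change the test and not the estimate. Leaving out another day likewise leaves a day estimate as it is, and dropping the day term leaves the siRNA estimate. Results without a call in the main setting had none to lose, so the 593 are no measure of stability. Of 60 day estimates taken within 1 siRNA alone, with no test, 6 had the other sign than the joint estimate. With a day left out, the siRNA estimate ran from -0.21 to 0.22 for Lif and from -0.65 to 0.66 for Cxcl1, the positive ends without day 1. The Cxcl12 estimate for day 1 over day 0 turned to 0.013 (limma adjusted p = 1) with median-ratio centring and to 0.039 (adjusted p = 0.977) with upper-quartile scaling.

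Over all transcripts, the siRNA fit called 1 higher and 9 lower, 2 higher with a mean of at least 5, and 0 and 0 without the filter, the trend or the day term and with any day left out (0 to 0). On day 1, 967 higher calls became 257 with no filter, 422 with no trend and 501 to 558 with a day left out, and 1477 lower calls became 342, 434, 937 with upper-quartile scaling, and 656 to 815. On day 2, 1675 higher calls became 614 with no filter and 995 with no trend, and 1737 lower calls 536 and 644, or 1110 (without day 3) to 1668 with a day left out. On day 3, 1865 higher calls became 907 with no filter, and 2579 lower calls 1236, or 1535 with no trend. The cause was not tested.

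Of the 2 members called on each day, the count on day 1 was 1 without day 2 or under either other scaling, and 0 with no filter or no trend. Under the filter of 5 FPKM Ccl7 passed on day 1 (limma adjusted p = 0.0464) and without day 3 (0.0375). On day 2 the count was 0 with no filter or no trend, and 0 (without day 3) to 4 (without day 1) with a day left out. On day 3 it was 0 with no filter and 1 with no trend. Past a 2-fold cutoff, members higher in siKlf5 numbered 1, 0 and 2 on days 0, 2 and 3, and 1 was lower on day 3. With a pseudocount of 4, 1 was higher on day 2, and with a mean of at least 5, which removes Il6, 0 were lower on day 2 and 1 on day 3. The shares of all transcripts past the cutoff were not taken for these 3 settings, so these member counts have no background beside them.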
